A study of Mus musculus with 8 samples.

Results

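The Wnt members were 51 mouse genes, taken from the deposited table by symbol: 15 Wnt ligands, 12 Frizzled and Lrp receptors, 7 genes of the R-spondin axis, 10 secreted antagonists, and 7 intracellular regulators and targets. All 51 were among the 18540 genes of the table, and 48 passed the filter on low counts. RNA from skin wound tissue was sequenced in 8 samples, 4 control samples (numbered 1, 2, 3 and 5) and 4 samples treated with Z1C2Z for 15 days (numbered 1, 2, 4 and 5). Z1C2Z is a nanocomposite of zinc peroxide and cerium oxide particles in the zinc framework ZIF-8. It was injected around the wound at 100 μg/kg, and control wounds received the same volume of PBS. The sample titles call the treated samples only shiyan, and the study's own sample names carry the same numbers with Z1C2Z. The methods describe circular wounds of 10 mm, 2 per mouse, in C57BL mice aged 6 weeks and in db/db mice aged 10 weeks, which lack a working leptin receptor. They do not state which of these strains was sequenced or which samples came from the same mouse. The p-values below therefore measure only the spread between these samples. The tissue was a mixture of all cells of the wound skin, so fewer cells of a type and less RNA per cell cannot be told apart.

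Wnt ligands are secreted lipid-modified proteins that bind a Frizzled receptor, alone or together with Lrp5 or Lrp6. In the canonical branch this protects β-catenin (Ctnnb1) from degradation, and β-catenin then acts on genes with the DNA-binding proteins of the TCF/LEF family, while other ligands use Frizzled receptors without β-catenin. R-spondins bound to Lgr receptors remove the ligases Znrf3 and Rnf43, which otherwise clear Frizzled receptors from the membrane. In skin the pathway is known for hair follicle formation and for the growth phase of the hair cycle.

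The Wnt members were higher in Z1C2Z wounds far more often than lower. They were chosen with earlier results of these data known, so the shares below describe these members and are not a test of the pathway. With edgeR's quasi-likelihood test over all genes (Benjamini-Hochberg adjusted p under 0.05), 17 of the 48 members tested rose (35.4%), against 4.28% of all genes tested. They were Wnt3a and Wnt11 among the ligands, Fzd2, Fzd3, Fzd5, Fzd6, Fzd7 and Fzd10 among the receptors, Rspo2, Znrf3 and Rnf43 of the R-spondin axis, the antagonists Wif1 and Notum, and Lef1, Tcf7, Nkd2 and Cxxc4 inside the cell. The log2 fold changes of these 17 lay between 0.44 and 1.74, and 6 of them also exceeded 1 on the log2 scale, where 2.15% of all genes were called higher. No member was called lower with edgeR (0 of 48, against 3.85% of all genes, or 1.25% at a log2 fold change under -1). Without adjustment, 27 members were higher and 3 were lower at an edgeR p under 0.05, against 12.8% and 15.2% of all genes. DESeq2 called 23 of 50 members with an adjusted p higher, against 7.65% of all genes, and 3 lower (Wnt2b, Wnt9a and Dkk3), against 9.31% of all genes. The members it called higher were the same 17 and also Wnt3, Wnt4, Wnt5a, Wnt10b, Nkd1 and Axin2.

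The direction was shared more widely than the calls. The log2 fold change was over 0 in 36 members and under 0 in 12, with a median of 0.42, while 51.1% of all genes were over 0 with a median of 0.01. In 22 members every Z1C2Z sample was above every control sample (45.8%, against 8.45% of all genes), and in 1 member, Wnt2b, every Z1C2Z sample was below (8.82% of all genes). The 17 members that rose were all among the 22. For each such gene the exact two-sided permutation test gave p = 0.0286, the smallest that 4 samples against 4 allow. Groups that do not overlap always give this value, so it adds nothing to the counts above.

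The adjusted p-values of the 17 members lay between 0.0299 and 0.0487, close to the threshold, and the number of calls depended on single samples. It was 17 without control-1, where 14 of the 17 were kept (Fzd2, Rspo2 and Tcf7 were lost), and 17 without Z1C2Z-5, where 15 were kept (Fzd2 and Rspo2 were lost). It was 11 without control-3, 3 without control-2, and 0 without control-5. It was also 0 when Z1C2Z-1 was left out, and likewise Z1C2Z-2 or Z1C2Z-4. In those fits, and without control-5, no gene of the series was called in either direction. In each of the 8 fits with a single sample left out, all 17 members stayed higher in Z1C2Z. Their groups did not overlap, so leaving out a sample could not turn their direction. The edgeR p before adjustment stayed under 0.05 for each of the 17. Without Z1C2Z-2 and Z1C2Z-4 together, the edgeR test called none and 16 of the 17 had an unadjusted p under 0.05.

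**Figure D1:**
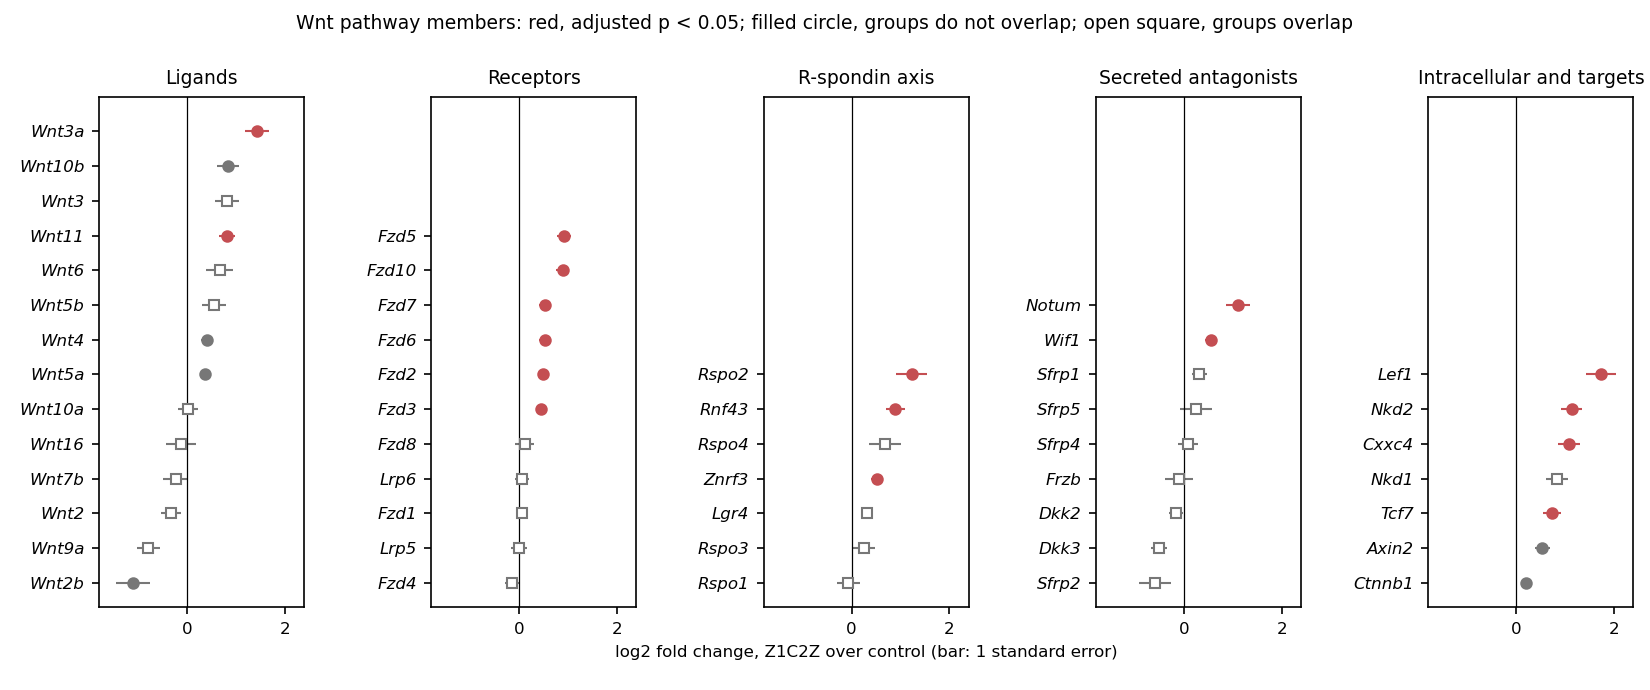
Log2 fold change of Z1C2Z over control (horizontal axis, bar: 1 standard error) for the 48 Wnt members tested, in 5 panels by role. Red circles are the 17 members with an edgeR adjusted p under 0.05. Grey circles are members whose groups did not overlap but which were not called, and open squares are members whose groups overlapped. Among the receptors, 6 Frizzled genes were called, and 5 receptors with log2 fold changes from -0.15 to 0.11 were not.

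The 250 bases upstream of the transcription start are shown for members that rose together, to set side by side the TCF/LEF and GC box letters that these promoters hold. RefSeq promoters (GRCm38.p6) matched 34 of the 51 members. Each sequence runs 5′ to 3′ on the gene's strand and ends at the base before the start. Capitals mark matches on either strand to the TCF/LEF heptamer CTTTGAA, to its variants ending in AT, TA or TT in place of AA, and to the GC box, written GGGCGG, and the heptamers and the box can share no more than 1 end base. The first Wnt11 start, Fzd7 and a later start of Lef1 hold the heptamer matches found among the members that rose. Wnt3a, Fzd5 and the first Lef1 start hold none. The other Wnt11 start and the other Lef1 starts, which are not printed, hold no heptamer match either. The windows are chr11:59290752-59291001 (minus strand) for Wnt3a, chr7:98834862-98835111 (plus strand) for Wnt11, chr1:64737751-64738000 (minus strand) for Fzd5, chr1:59481897-59482146 (plus strand) for Fzd7, and chr3:131110047-131110296 and chr3:131156044-131156293 (plus strand) for Lef1.
Wnt3a: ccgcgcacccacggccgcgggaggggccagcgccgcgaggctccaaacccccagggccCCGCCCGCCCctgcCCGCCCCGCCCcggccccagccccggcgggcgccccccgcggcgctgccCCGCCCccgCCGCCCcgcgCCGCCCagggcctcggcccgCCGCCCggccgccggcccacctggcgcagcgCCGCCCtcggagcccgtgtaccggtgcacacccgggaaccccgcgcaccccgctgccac
Wnt11: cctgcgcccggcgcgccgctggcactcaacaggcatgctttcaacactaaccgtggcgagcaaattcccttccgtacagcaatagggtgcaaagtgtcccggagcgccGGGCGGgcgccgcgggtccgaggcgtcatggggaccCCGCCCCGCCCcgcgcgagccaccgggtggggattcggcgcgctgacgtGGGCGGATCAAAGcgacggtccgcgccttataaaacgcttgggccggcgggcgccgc
Fzd5: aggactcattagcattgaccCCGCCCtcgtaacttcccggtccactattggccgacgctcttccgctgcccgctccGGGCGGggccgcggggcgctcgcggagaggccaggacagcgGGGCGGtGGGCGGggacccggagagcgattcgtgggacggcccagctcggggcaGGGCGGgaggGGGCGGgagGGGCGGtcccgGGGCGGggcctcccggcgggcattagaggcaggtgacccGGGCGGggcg
Fzd7: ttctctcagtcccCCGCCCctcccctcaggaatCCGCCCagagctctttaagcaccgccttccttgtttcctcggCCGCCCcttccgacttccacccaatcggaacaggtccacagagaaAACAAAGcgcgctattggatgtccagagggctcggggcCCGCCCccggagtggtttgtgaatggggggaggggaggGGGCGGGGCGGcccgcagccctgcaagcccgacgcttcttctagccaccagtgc
Lef1, first start: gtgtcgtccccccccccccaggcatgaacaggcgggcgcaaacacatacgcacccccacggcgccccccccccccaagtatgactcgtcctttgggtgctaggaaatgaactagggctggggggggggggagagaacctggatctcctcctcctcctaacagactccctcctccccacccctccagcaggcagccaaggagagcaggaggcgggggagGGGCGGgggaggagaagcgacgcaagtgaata
Lef1, later start: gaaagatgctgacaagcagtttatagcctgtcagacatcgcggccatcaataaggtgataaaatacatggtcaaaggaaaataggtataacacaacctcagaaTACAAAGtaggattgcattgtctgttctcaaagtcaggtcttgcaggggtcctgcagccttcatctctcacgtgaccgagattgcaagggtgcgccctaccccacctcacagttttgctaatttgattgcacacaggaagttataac

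In the first Wnt11 window the match ATCAAAG began 51 bases before the start, directly after a GC box. In Fzd7 the match AACAAAG began 130 bases before the start, and in the later Lef1 window TACAAAG began 147 bases before it. Heptamer matches were present in 3 of 17 windows (17.6%) of the 11 members that rose and had a RefSeq promoter, in 1 of 26 windows (3.85%) of 23 other members, and in 14.8% of all 32851 promoters of the table. Several members, such as Lef1, have more than 1 window, and some of these overlap. The shares of windows are therefore not shares of separate promoters. GC boxes were present in 70.6% of windows of members that rose, in 69.2% of windows of other members and in 32.7% of all promoters. The Wnt3a and Fzd5 windows held 9 boxes each. The promoters of members that rose and of the other members were thus alike in GC boxes, with a median GC content of 65.2% and 67.4%, against 52.4% for all promoters. A match is a description of letters in this window and not a binding site.

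Values in each sample are given below as CPM (counts scaled to library size) after adjustment by TMM factors, in the order of the sample numbers, for the controls 1, 2, 3 and 5 and then for Z1C2Z 1, 2, 4 and 5. Fold changes are log2 values of Z1C2Z over control with their standard error (SE), and n was 4 per group throughout.

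Among the ligands, 2 of 14 tested rose. Wnt3a (Entrez 22416), a canonical ligand whose product activates β-catenin, stood at 1.42, 1.78, 1.63 and 1.15 CPM in the controls and at 3.61, 4.97, 4.87 and 2.80 CPM after Z1C2Z. Every treated sample was above every control, and the log2 fold change was 1.44 (SE 0.25, edgeR adjusted p = 0.0299), which made it the ligand with the largest rise. Its promoter is the GC-rich window with no heptamer match printed above. Wnt11 (Entrez 22411), a ligand known mainly for β-catenin-independent signalling and cell movement, stood at 6.29, 7.66, 7.35 and 7.46 CPM in the controls and at 11.6, 15.03, 14.9 and 9.34 CPM after Z1C2Z. Z1C2Z-5 was the lowest treated sample and was still above the highest control. The log2 fold change of Wnt11 was 0.82 (SE 0.17, edgeR adjusted p = 0.0314).

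A further 3 ligands were higher in every treated sample and missed the threshold. Wnt10b, a canonical ligand of hair follicle growth, was at 10.6, 11.6, 11.7 and 5.32 CPM in the controls and at 17.4, 20.4, 16.8 and 15.7 CPM after Z1C2Z (log2 fold change 0.84, SE 0.23, edgeR adjusted p = 0.0554). Control-5 stood apart from the other controls here. Wnt5a, the prototype of β-catenin-independent ligands, was at 50.4, 55.4, 56.5 and 44.8 CPM against 74.8, 68.1, 63.5 and 62.9 CPM (0.38, SE 0.10, edgeR adjusted p = 0.0521). Wnt4, a ligand expressed in epidermis, was at 33.9, 32.6, 25.9 and 28.2 CPM against 36.2, 40.2, 46.6 and 36.7 CPM (0.41, SE 0.12, edgeR adjusted p = 0.0697). The groups of these 3 genes did not overlap, but the edgeR adjusted test did not separate them, while DESeq2 called each of them higher.

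Wnt2b had the opposite sign. It stood at 4.76, 7.41, 7.33 and 5.44 CPM in the controls and at 3.53, 2.28, 1.31 and 4.49 CPM after Z1C2Z. The highest treated sample was just under the lowest control, and the log2 fold change was -1.11 (SE 0.35, edgeR adjusted p = 0.0807). Wnt9a had the value nearest to it, a log2 fold change of -0.79 (SE 0.23, edgeR adjusted p = 0.0677), with controls from 13.0 to 29.4 CPM and treated samples from 10.3 to 14.6 CPM. The groups of Wnt9a overlapped through control-1, and without that sample the edgeR adjusted p was 0.0292. Of the other ligands, Wnt3 had a log2 fold change of 0.83 (SE 0.24, edgeR adjusted p = 0.0673), with 2.58 to 4.58 CPM in the controls and 4.27 to 8.31 CPM after Z1C2Z. Wnt2, Wnt5b, Wnt6, Wnt7b, Wnt10a and Wnt16 overlapped between the groups, with log2 fold changes from -0.33 to 0.67. Wnt7a did not pass the filter, with 1 to 4 counts in the controls and 0 to 2 counts after Z1C2Z.

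Some receptors rose and the others were not called. Fzd2, Fzd3, Fzd5, Fzd6, Fzd7 and Fzd10 rose, which was 6 of the 11 receptors tested (54.5%). Fzd1, Fzd4, Fzd8 and the co-receptors Lrp5 and Lrp6 had log2 fold changes from -0.15 to 0.11, with SE from 0.07 (Fzd1) to 0.19 (Fzd8). The threshold draws this line, and distinct classes of receptor are not shown by it. Fzd5 (Entrez 14367) stood at 16.8, 21.7, 20.1 and 14.8 CPM in the controls and at 36.2, 38.3, 35.2 and 28.3 CPM after Z1C2Z. Fzd10 (Entrez 93897) stood at 18.9, 21.2, 20.5 and 13.8 CPM in the controls and at 35.1, 34.4, 36.7 and 31.7 CPM after Z1C2Z. Both groups were far apart in these receptors: the log2 fold change was 0.91 (SE 0.14) for Fzd5 and 0.89 (SE 0.14) for Fzd10, each with an edgeR adjusted p of 0.0299. Fzd5 and Fzd10 encode Frizzled receptors that can couple to β-catenin.

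The other Frizzled genes that rose did so by less and were very even among the treated samples. Fzd6, a receptor of planar cell polarity that orients hair follicles, was at 60.1, 74.6, 57.0 and 54.1 CPM in the controls and at 90.2, 88.2, 88.9 and 85.0 CPM after Z1C2Z (log2 fold change 0.52, SE 0.11, edgeR adjusted p = 0.0315). Fzd7 was at 66.6, 60.5, 49.9 and 45.9 CPM against 79.3, 82.3, 77.4 and 82.4 CPM (0.53, SE 0.12, edgeR adjusted p = 0.0373). The highest treated sample was 1.06 times the lowest in both genes. Fzd2 was at 22.4, 26.3, 27.1 and 19.2 CPM against 32.0, 33.0, 35.2 and 33.5 CPM (0.49, SE 0.12, edgeR adjusted p = 0.0397). Fzd3, another receptor of planar polarity, was at 26.7, 22.7, 23.3 and 20.7 CPM against 33.2, 29.7, 33.1 and 30.6 CPM (0.44, SE 0.10, edgeR adjusted p = 0.0362). In contrast, the treated samples of Lef1 spanned 2.11 times, those of Wnt3a 1.78 times and those of Nkd2 1.69 times.

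Fzd1, the receptor with the highest level per length, differed by less than its error between the groups. It stood at 126, 128, 129 and 126 CPM in the controls and at 137, 126, 139 and 129 CPM after Z1C2Z, and the log2 fold change was 0.06 (SE 0.07, edgeR adjusted p = 0.638). Lrp6 ranged from 129 to 164 CPM in the controls and from 125 to 189 CPM after Z1C2Z (0.06, SE 0.15), and Lrp5 from 35.5 to 58.8 CPM and from 38.8 to 57.4 CPM (-0.01, SE 0.17). The groups of these co-receptors overlapped widely. Fzd9 did not pass the filter, with 6 to 13 counts in the controls and 3 to 10 counts after Z1C2Z.

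**Figure D2:**
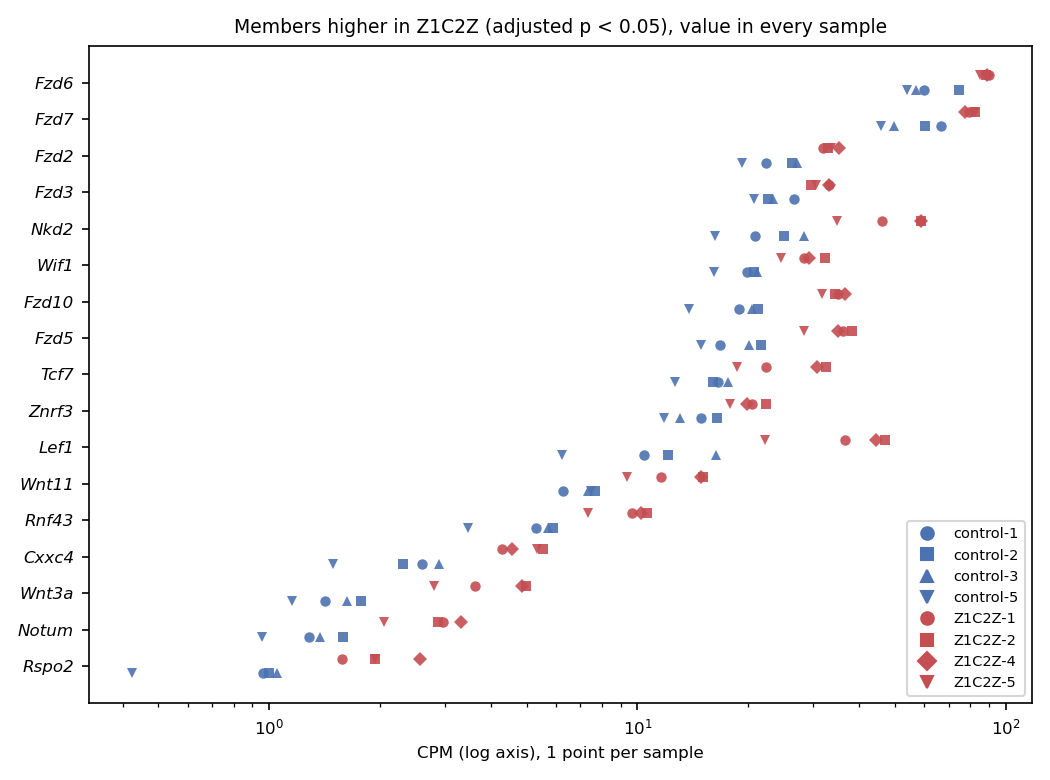
CPM in each of the 8 samples (horizontal log axis, 1 point per sample) for the 17 Wnt members that rose. Blue symbols are controls and red symbols are Z1C2Z samples. In every row all red points lie to the right of all blue points. Control-5 is the lowest control in 16 rows and Z1C2Z-5 the lowest treated sample in 12. Among the 648 genes of the series called higher, these were 370 and 542 genes.

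On the R-spondin axis, 3 of 7 genes rose. They were both ligases and 1 ligand. Rnf43 (Entrez 207742) stood at 5.29, 5.88, 5.70 and 3.46 CPM in the controls and at 9.67, 10.6, 10.2 and 7.35 CPM after Z1C2Z (log2 fold change 0.89, SE 0.20, edgeR adjusted p = 0.0348). Znrf3 (Entrez 407821) stood at 14.9, 16.5, 13.0 and 11.8 CPM against 20.5, 22.4, 19.9 and 17.8 CPM (0.52, SE 0.13, edgeR adjusted p = 0.0441). These ligases are themselves known targets of the pathway that limit it at the membrane. Rspo2 (Entrez 239405), an R-spondin, stood at 0.959, 0.999, 1.05 and 0.423 CPM against 1.58, 1.94, 2.56 and 1.94 CPM (1.23, SE 0.32, edgeR adjusted p = 0.0478). The groups of all 3 genes were apart, and control-5 lay well below the other controls for Rspo2, whose level was the lowest per length on the axis. Lgr4, a receptor of R-spondins, was at 98.4, 72.4, 85.0 and 66.0 CPM against 96.6, 92.9, 106 and 105 CPM (0.32, SE 0.13, edgeR adjusted p = 0.147). Its groups overlapped through control-1. Rspo1, Rspo3 and Rspo4 overlapped too, with log2 fold changes from -0.06 to 0.68.

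The secreted antagonists were mixed. Of 9 tested, 2 rose. Notum (Entrez 77583), an enzyme that removes the lipid from Wnt ligands and is a feedback target, stood at 1.28, 1.58, 1.38 and 0.958 CPM in the controls and at 2.96, 2.88, 3.31 and 2.05 CPM after Z1C2Z (log2 fold change 1.11, SE 0.24, edgeR adjusted p = 0.0337). Wif1 (Entrez 24117), a secreted protein that binds Wnt ligands, stood at 19.8, 20.7, 21.2 and 16.1 CPM against 28.3, 32.3, 29.3 and 24.5 CPM (0.56, SE 0.12, edgeR adjusted p = 0.0341). Their groups did not overlap. Sfrp2, a secreted Frizzled-related protein and the antagonist with the highest level per length, stood at 179, 513, 627 and 423 CPM against 301, 277, 227 and 351 CPM (-0.59, SE 0.32, edgeR adjusted p = 0.264). Control-1 was the lowest of all 8 samples for Sfrp2 and the other 3 controls were the highest, and without control-1 the log2 fold change was -0.86 with an edgeR adjusted p of 0.0348.

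Dkk3, a Dickkopf relative, had a log2 fold change of -0.51 (SE 0.16, edgeR adjusted p = 0.0804), with controls from 99.2 to 173 CPM and treated samples from 90.8 to 109 CPM. Here too control-1 lay among the treated samples, and without it the edgeR adjusted p was 0.0266. Sfrp1, Sfrp4, Sfrp5, Frzb and Dkk2 overlapped, with log2 fold changes from -0.17 to 0.32. Dkk4, an inhibitor of Lrp co-receptors, had 0 counts in all 4 controls and 4, 16, 3 and 0 counts in the Z1C2Z samples. It did not pass the filter, no fold change was computed, and a count of 0 allows up to 3 counts in a library.

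Inside the cell, 4 of 7 members tested rose (57.1%). Lef1 (Entrez 16842), a DNA-binding partner of β-catenin active in the hair matrix and in follicle formation, had the largest rise of all members. It stood at 10.4, 12.1, 16.4 and 6.25 CPM in the controls and at 36.6, 47.0, 44.5 and 22.2 CPM after Z1C2Z, or 11.3 ± 4.18 against 37.6 ± 11.1 CPM (SD, n = 4). The lowest treated sample, Z1C2Z-5, was above the highest control, control-3, and the log2 fold change was 1.74 (SE 0.31, edgeR adjusted p = 0.0299). Tcf7, its relative, stood at 16.6, 16.1, 17.6 and 12.6 CPM against 22.3, 32.4, 30.7 and 18.6 CPM (0.73, SE 0.19, edgeR adjusted p = 0.0487). For Tcf7 the gap between Z1C2Z-5 and control-3 was small.

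Nkd2 (Entrez 72293), which binds Dishevelled and restrains the pathway, stood at 20.9, 25.1, 28.4 and 16.2 CPM in the controls and at 46.1, 58.8, 58.9 and 34.8 CPM after Z1C2Z (log2 fold change 1.13, SE 0.21, edgeR adjusted p = 0.0303). Cxxc4, another inhibitor that binds Dishevelled, stood at 2.59, 2.30, 2.89 and 1.49 CPM against 4.29, 5.54, 4.57 and 5.35 CPM (1.09, SE 0.23, edgeR adjusted p = 0.0315). Cxxc4 differed from Lef1 and Nkd2 in that Z1C2Z-5 was not low among the treated samples. Nkd1, the relative of Nkd2, had a log2 fold change of 0.84 (SE 0.22, edgeR adjusted p = 0.0505), and its groups overlapped, with controls up to 8.06 CPM and Z1C2Z-5 at 7.57 CPM.

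Axin2, the feedback inhibitor widely used as a readout of β-catenin signalling, stood at 17.0, 19.4, 18.5 and 12.5 CPM in the controls and at 24.8, 21.2, 27.6 and 24.1 CPM after Z1C2Z. The groups did not overlap, but the log2 fold change of 0.54 (SE 0.15) missed the threshold with edgeR (edgeR adjusted p = 0.0568). It passed with DESeq2 (DESeq2 adjusted p = 0.0139), so the call depended on the tool. Ctnnb1, which encodes β-catenin, stood at 729, 717, 729 and 725 CPM in the controls and at 810, 920, 857 and 764 CPM after Z1C2Z. The controls were almost equal and every treated sample was above them, by a log2 fold change of 0.21 (SE 0.09, edgeR adjusted p = 0.158).

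To compare levels between genes, CPM was divided by kilobases of exon (GENCODE M21). Among the ligands Wnt5a was at 7.37 CPM per kb in the controls and Wnt4 at 7.19 CPM per kb, while Wnt3a was at 0.541 CPM per kb in the controls and at 1.47 CPM per kb after Z1C2Z. Wnt3a was thus the lowest of the 14 ligands tested in the controls and remained under Wnt10b, which was at 2.88 CPM per kb in the controls and at 5.16 CPM per kb after Z1C2Z. Among the receptors Fzd1 was at 30.3 CPM per kb in the controls and 31.6 CPM per kb after Z1C2Z, and Fzd6 went from 14.0 to 20.1 CPM per kb. Fzd10 went from 5.72 to 10.6 CPM per kb and Fzd5 from 2.65 to 4.99 CPM per kb. Lef1 went from 3.22 to 10.7 CPM per kb, from below the level of Tcf7 in the controls (5.99 CPM per kb) to near it after Z1C2Z (9.91 CPM per kb). The ranges of Lef1 and Tcf7 after Z1C2Z overlapped, so that their order there is not separated.

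Summed over a role, the receptors reached 102 to 120 CPM per kb in the controls and 125 to 141 CPM per kb after Z1C2Z. The R-spondin axis reached 18.9 to 27.3 against 28.0 to 31.1 CPM per kb, of which Lgr4 was 69.9% in the controls. The ligands reached 41.6 to 46.9 against 46.7 to 53.7 CPM per kb, so that their ranges overlapped. The antagonists reached 170 to 423 against 211 to 279 CPM per kb and overlapped, with Sfrp2 making up 66.3% in the controls. The intracellular members reached 215 to 226 against 241 to 303 CPM per kb, with Ctnnb1 making up 90.7% in the controls. The sums of the receptors, the R-spondin axis and the intracellular members were higher in each treated sample than in any control, and the sums of ligands and of antagonists were not.

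**Figure D3:**
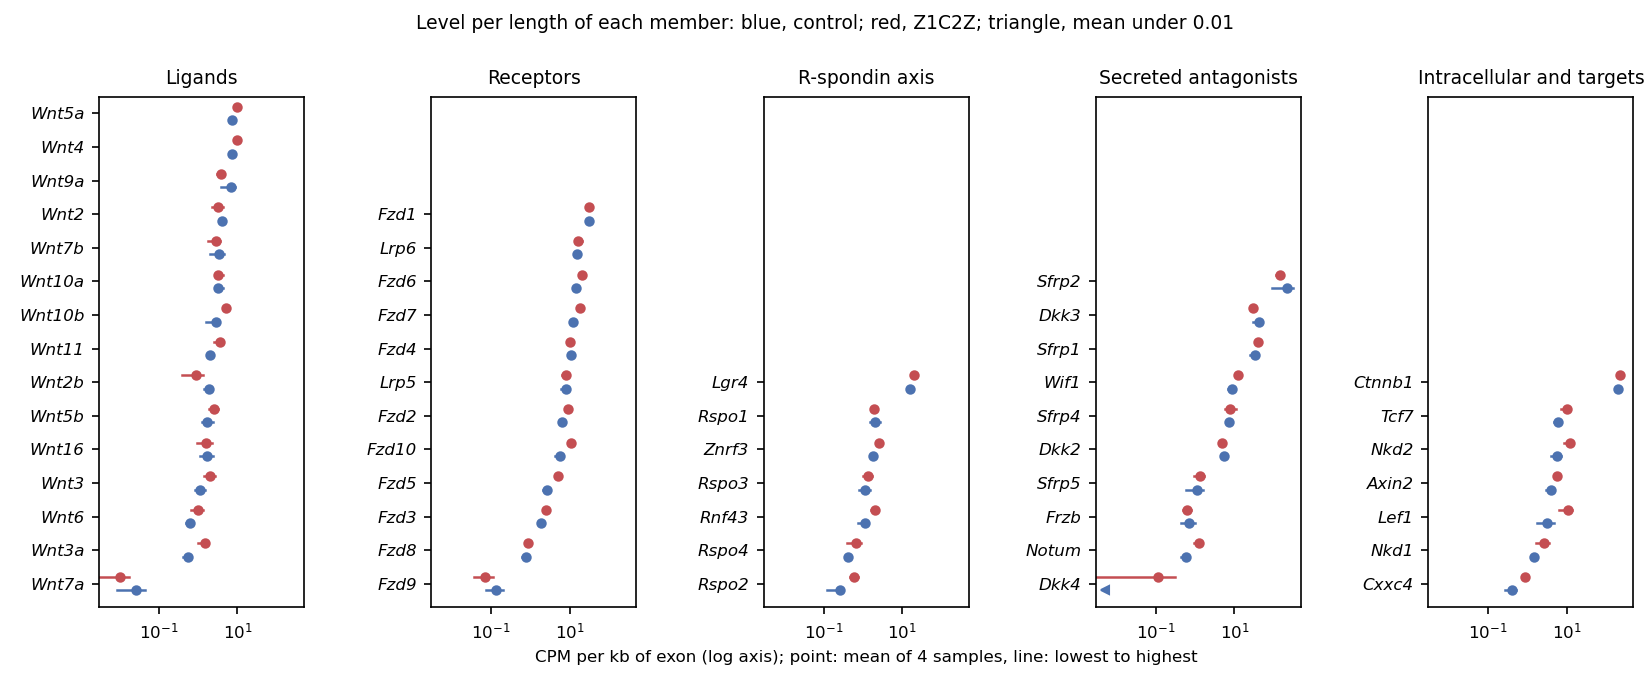
Level per length of each Wnt member (CPM per kb of exon, horizontal log axis) in control (blue) and Z1C2Z (red) samples, in 5 panels by role; points are means of 4 samples, lines run from the lowest to the highest sample and the triangle marks Dkk4, at 0 in all controls. Sfrp2 and Ctnnb1 lie far to the right of the other members of their roles, and Wnt3a and Rspo2 are the lowest tested members of theirs in the controls.

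A list of 71 other genes of the pathway was also counted, of which 69 were in the table and 63 were tested. With edgeR, 8 rose (12.7%, against 4.28% of all genes) and 3 fell, a share near the 3.85% of all genes that were called lower. The median log2 fold change of the list was 0.05. Those that rose were the planar polarity genes Celsr1 (0.86, SE 0.13), Celsr2 (0.65, SE 0.13) and Vangl2 (0.87, SE 0.14), the R-spondin receptor and stem cell marker Lgr5 (0.76, SE 0.16), the antagonists Apcdd1 (0.73, SE 0.18) and Sostdc1 (0.96, SE 0.25), the signal transducer Dvl2 (0.37, SE 0.10) and the cell cycle target Ccnd1 (0.60, SE 0.11). Their edgeR adjusted p-values were between 0.0299 and 0.0490, and their groups did not overlap. Vangl2, for example, stood at 24.8, 24.3, 26.5 and 18.3 CPM in the controls and at 41.1, 47.9, 46.9 and 36.1 CPM after Z1C2Z.

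The 3 that fell were Cd44, an adhesion receptor often listed as a β-catenin target and also carried by leukocytes, the kinase gene Camk2d, and Nfatc1, a calcium-dependent transcription factor of follicle stem cells. Cd44 stood at 783, 720, 853 and 996 CPM in the controls and at 403, 369, 409 and 485 CPM after Z1C2Z, and fell by 1.01 on the log2 scale (SE 0.13, edgeR adjusted p = 0.0280). Camk2d fell by 0.44 (SE 0.09, edgeR adjusted p = 0.0315) and Nfatc1 by 0.71 (SE 0.16, edgeR adjusted p = 0.0362). Wnt1, Wnt8a, Wnt9b, Dkk1, Sost and Sp5 did not pass the filter.

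Markers of the hair shaft and matrix, the inner root sheath and melanocytes were mostly higher in Z1C2Z, and dermal papilla markers were not called. Of all genes tested, edgeR called 4.28% higher and 3.85% lower. Of 13 hair shaft and matrix markers 12 rose and none fell, and their summed level was 85.5 to 408 CPM in the controls and 470 to 3861 CPM after Z1C2Z. Of 8 inner root sheath markers 6 rose, with sums of 638 to 3707 CPM against 4549 to 15050 CPM, and of 4 melanocyte markers all 4 rose, with sums of 82.3 to 143 CPM against 187 to 431 CPM. Of 8 dermal papilla markers none was called, and their sums were 190 to 221 CPM against 190 to 201 CPM. Interfollicular epidermis had 0 calls of 7, with sums of 11676 to 14109 CPM against 13085 to 18391 CPM. Of 7 fibroblast markers 3 fell, with sums of 55001 to 78199 CPM against 43197 to 60642 CPM, and of 6 skeletal muscle markers 2 fell, with sums of 2922 to 5244 CPM against 2414 to 2706 CPM. None of the 5 macrophage (997 to 1328 against 538 to 1095 CPM), 4 tested of 5 neutrophil (566 to 1491 against 166 to 648 CPM), 4 endothelial (255 to 674 against 215 to 420 CPM) and 5 adipocyte markers (466 to 558 against 353 to 709 CPM) was called. No marker was at 0 in every sample. The part of these cell types in the Wnt result was not tested.

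The log2 CPM of the 17 Wnt members that rose, each relative to its control mean, had a median of 0.03, 0.18, 0.15 and -0.30 in the controls and of 0.91, 1.06, 1.00 and 0.58 in the Z1C2Z samples. The median of the 13 hair shaft and matrix markers was -1.77, 0.47, 2.11 and -0.73 in the controls and 4.13, 5.91, 5.78 and 2.09 after Z1C2Z. The 17 members were chosen by this comparison, so these medians describe how the samples differ and test nothing. Control-5 was the lowest control in 16 of the 17 Wnt members, and in 370 of the 648 genes of the series called higher. Z1C2Z-5 was the lowest treated sample in 12 of the 17 members, and in 542 of the 648 genes.

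**Figure D4:**
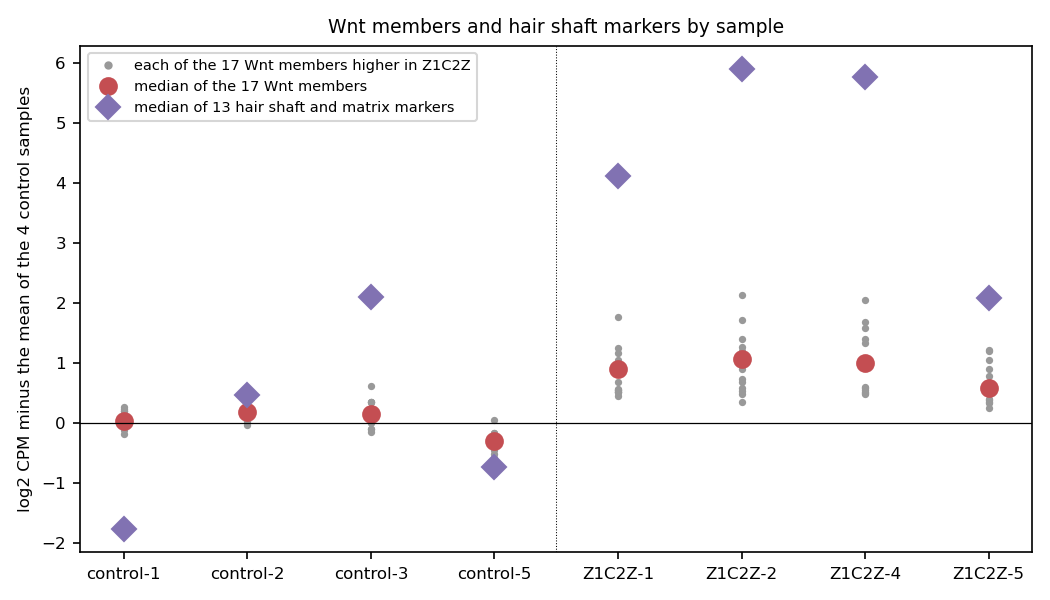
Log2 CPM minus the mean of the 4 controls (vertical axis) in each of the 8 samples. Grey points are the 17 Wnt members that rose, red circles their median and purple diamonds the median of 13 hair shaft and matrix markers; the red values run from -0.30 to 0.18 in the controls and from 0.58 to 1.06 after Z1C2Z, and the purple values from -1.77 to 2.11 and from 2.09 to 5.91. The 17 members were chosen as those that rose, so the gap between their groups is a description.

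The total was 28856790 to 38974888 counts per sample. On log2 CPM, samples of the same group correlated at 0.960 to 0.990 and samples of different groups at 0.906 to 0.982 across genes. Z1C2Z-5 lay nearest to the controls on the first principal component, which held 62.2% of the variance. No samples of a group agreed within counting noise. This check can detect only the same RNA sequenced again, not wounds of the same mouse. Each sample was counted as 1 replicate.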

How the data were processed

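RNA from wound skin of 4 control and 4 Z1C2Z samples was sequenced after rRNA removal, with a second strand marked by dUTP per the labels. The deposited table holds whole-number counts for 18540 genes, which the authors did not normalize. The aligner, counter, genome build, annotation and strand setting are not given in the sources used here, so reads shared by overlapping or near-identical genes could not be reassigned. Groups followed the sample titles. Per-sample columns left aside numbered 0.

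The fit used edgeR 4.0.16 (with limma 3.58.1, under R 4.3.3). After filterByExpr, 15147 genes remained, which were scaled by TMM and tested over all 8 samples with the quasi-likelihood test, with no covariates and Benjamini-Hochberg adjustment over all genes tested. The threshold was an adjusted p under 0.05. Calls that also passed an absolute log2 fold change of 1 were counted separately. Each standard error is the log2 fold change divided by the root of its F statistic. Log2 CPM used a prior count of 2. Single members also had an exact permutation test over the 70 arrangements. The edgeR fit was tested on simulated counts with known fold changes, and the other steps were not. Exon lengths came from GENCODE M21 (51 of 51 members) and promoters from RefSeq GRCm38.p6.

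Values in each sample are given for members that passed the test or whose groups did not overlap, and for the member of each role with the highest CPM per kb. The other members are given by ranges. Other pathway genes are named where they passed the test, up to 12. The members and lists were chosen with earlier results of these data known. Alternatives were DESeq2 1.42.0, RLE scaling, no filter, at least 10 counts in every sample, each sample left out, Z1C2Z-2 and Z1C2Z-4 left out together, the sample number as a block, and the fold change threshold.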

Additional observations from a re-analysis of the deposited data

Results flagged for a closer look

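In 2 of the 96 groups of 4 samples tested (48 members, control and Z1C2Z), 1 sample lay far from the other 3, by a gap above Dixon's 95% critical value. Both were control-5: Wnt10b was at 5.32 CPM there and at 10.6 to 11.7 CPM in the other controls, and Rspo2 was at 0.423 CPM there and at 0.959 to 1.05 CPM in the other controls. Chance alone flags about 1 in 20 groups, and 2.08% were flagged here. Without control-5 the log2 fold change was 0.64 for Wnt10b (edgeR adjusted p = 0.0768) and 1.00 for Rspo2 (edgeR adjusted p = 0.0921).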

How the results depend on the processing

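Of 672 single-member values under the alternatives, 502 kept their direction and their side of the threshold, 124 lost the threshold, 19 gained it and 27 turned sign, in 10 members. None of the 17 members that rose turned sign under any alternative. Their groups did not overlap, which all but fixed this in advance. The number of members higher in Z1C2Z was 17 in the main analysis, 23 with DESeq2, 17 with RLE scaling, 16 without a filter and 18 with at least 10 counts in every sample. It ranged from 0 to 17 when each sample was left out, was 0 without Z1C2Z-2 and Z1C2Z-4, 4 with the sample number as a replicate block and 6 with a log2 fold change over 1. The count of members lower was 0 in the main analysis, 3 with DESeq2 and 0 to 3 when each sample was left out: 3 without control-1 (Wnt9a, Dkk3 and Sfrp2) and 1 without Z1C2Z-5 (Wnt2b). Of the other pathway genes, 8 were higher and 3 lower. With each sample left out these counts were 0 to 8 and 0 to 4, without Z1C2Z-2 and Z1C2Z-4 0 and 0, with the block 1 and 1, and with the fold change threshold 0 and 1. They were both 0 without control-5 and when Z1C2Z-1, or Z1C2Z-2, or Z1C2Z-4 was left out, and 1 and 1 without control-2. Members whose groups did not overlap numbered 22 to 25 higher and 1 to 4 lower when each sample was left out (4 without control-1), and 24 and 2 without Z1C2Z-2 and Z1C2Z-4. Groups with fewer samples separate more easily by construction. The share of all genes was not counted for these fits, so these numbers have no background to be read against. Over all genes, edgeR called 648 higher and 583 lower in the main analysis. These counts were 656 and 868 without control-1, 25 and 98 without control-2, and 541 and 464 without control-3. They were 886 and 859 without Z1C2Z-5. No gene was called without control-5, or when Z1C2Z-1, or Z1C2Z-2, or Z1C2Z-4 was left out. The smallest edgeR adjusted p of any gene was 0.0584 without control-5 and 0.28 without Z1C2Z-2 and Z1C2Z-4. The cause of these differences was not tested.

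The sample numbers 1, 2 and 5 occur in both groups. Deviations from the group means of samples with the same number correlated at -0.101, -0.0623 and 0.323, and 2 of these 6 samples correlated best with their own number. These values show no clear pairing by number, but with so few samples they cannot exclude a shared mouse or batch. The block kept Fzd5, Fzd10, Nkd2 and Lef1. The members whose sign turned had log2 fold changes between -0.15 and 0.25 in the main analysis. Without Z1C2Z-2 and Z1C2Z-4 the log2 fold change was -0.19 for Wnt10a, 0.17 for Wnt16, 0.069 for Fzd4, 0.16 for Lrp5, -0.093 for Sfrp5 and 0.13 for Frzb. With the replicate block it was -0.21 for Wnt10a, 0.19 for Wnt16, 0.021 for Lrp5 and -0.033 for Sfrp5. With each sample left out it ranged from -0.15 to 0.19 for Wnt10a, -0.34 to 0.12 for Wnt16, -0.0012 to 0.22 for Fzd8, -0.14 to 0.092 for Lrp5, -0.052 to 0.15 for Lrp6, -0.19 to 0.090 for Rspo1, -0.18 to 0.19 for Sfrp4 and -0.26 to 0.13 for Frzb. The filter on low counts left Wnt7a, Fzd9 and Dkk4 untested in the main analysis.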
